A study of Neurospora crassa OR74A with 13 samples.

Results

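The genes described here are 7 Neurospora crassa genes of the glycoside hydrolase families GH3, GH43, GH51 and GH54, taken by their NCU identifiers as the xylosidases and arabinofuranosidases that finish the breakdown of xylan and arabinan. They are NCU00709 (gh3-8), NCU09923 (gh3-7), NCU09652, NCU01900, NCU02343, NCU07326 and NCU09775, and they are 7 of the 9733 genes in the deposited files. The rule that lists them uses no measured value, but the 7 genes were chosen with earlier results of these data known. A reference gene table gave symbols for 2 of them, both in GH3, and none for the other 5, so no family or enzyme is assigned here to a single gene among those 5.

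Polyadenylated RNA of N. crassa, a filamentous fungus that grows on dead plant matter, was sequenced in 13 libraries in 7 groups. Mycelium was grown for 16 h in sucrose medium, washed, and held for 4 h in fresh medium. The groups were the strain TBGK on Avicel, TBGK on cellobiose, TBGK on sucrose, the wild type (WT, reference strain FGSC 2489) on Avicel, WT on cellobiose, WT without a carbon source, and WT on sucrose. TBGK lacks 3 beta-glucosidase genes, gh3-4 (NCU04952), gh1-1 (NCU00130) and gh3-3 (NCU08755), Avicel is crystalline cellulose, and cellobiose is the glucose dimer that cellulases release from it. Biological triplicates were sequenced for 3 WT groups (Avicel, no carbon, sucrose), and the other 4 groups were a single library each. The labels mark the 9 triplicate libraries as part of an earlier deposit, so wherever a single library is set against them, deposit and strain or carbon source cannot be told apart.

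Xylan, the main hemicellulose of grasses and hardwoods, is a chain of xylose units that carries side groups of arabinose, acetate and uronic acid. Endoxylanases of families GH10 and GH11 cut the chain into short oligomers, beta-xylosidases then release xylose from their ends, and arabinofuranosidases remove the arabinose side groups. Enzymes of GH3 include beta-xylosidases and beta-glucosidases, GH43 holds xylosidases and arabinofuranosidases, and GH51 and GH54 are known for arabinofuranosidases. Fungi secrete these enzymes or keep them in the cell, and usually repress their genes while a preferred sugar such as sucrose is present.

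Values are FPKM, transcript levels scaled by transcript length and library size. All 7 genes passed the filter used for tests (at least 1 FPKM in at least 3 of the 9 triplicate libraries), as did 8759 genes in all. The deposited coverage of the triplicate libraries corresponded to 11.8 M reads (M, 1e6) in Avicel replicate 1, much the same in sucrose replicate 1, and 38.8 to 110.6 M in the other 7. How deeply the 4 single libraries were sequenced is unknown. The deleted genes were at most 9.21 FPKM in the TBGK libraries, against at least 189 FPKM in each WT Avicel library. On sucrose the WT had at most 0.983 FPKM of gh3-4, 47.1 of gh1-1 and 10.1 of gh3-3, so these genes check the labels less well there. Conidiation genes, which mark the formation of asexual spores, moved with the groups. The summed FPKM of 5 such markers (con-6, con-10, eas, fl and NCU10997) was 11006 on Avicel, 38854 on cellobiose and 155 on sucrose in TBGK. In WT it was 19741 to 40546 on Avicel, 18889 on cellobiose, 81124 to 212440 without carbon and 90.6 to 449.6 on sucrose. Outside sucrose most of each sum was eas, with 18527 FPKM in WT on cellobiose. The other markers differed more between WT on cellobiose and WT on Avicel. On cellobiose con-6 had 10.8 FPKM (517 to 2082 on Avicel) and con-10 had 65.4 (158 to 699). NCU10997 had 124 (1076 to 3628), whereas fl was higher on cellobiose, at 163 (58.8 to 96.7). All 5 markers were above 0 except in WT on sucrose, where 3 were at 0 in replicate 1 and 1 in replicate 3. Their part in the results below was not tested, and in these whole cultures fewer cells of a kind and less RNA per cell cannot be told apart.

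WT on Avicel, set against WT without carbon, addresses which transcripts differ with Avicel beyond the loss of sugar. The 2 groups also differ in the read length inferred below, which cannot be told apart from the lack of carbon. Of the 7 genes 6 rose on Avicel, and in all 7 each Avicel library lay above each no carbon library. This comparison and those below share WT libraries, so their results are not independent of each other. Among all tested genes 3.9% rose by the same test and 10.7% were separated in this way. The rises of the 6 ran from 2.997 to 6.76 on the log2(FPKM + 1) scale used for all differences, and the median of the 7 genes was 4.02, beside -0.16 for all tested genes. The test was limma across all genes with Benjamini-Hochberg adjustment, and all 7 genes had the same direction in it.

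The pair of GH3 genes was low beside NCU09652, NCU01900, NCU02343 and NCU07326. The median over all genes was 81.6, 89.2 and 88.4 FPKM in Avicel replicates 1, 2 and 3. The transcript of gh3-8 had 52.8, 263 and 291 FPKM on Avicel in replicates 1, 2 and 3, against 6.31, 7.23 and 15.2 without carbon. The transcript of gh3-7 had 163, 214 and 280.3 FPKM on Avicel and 11.99, 7.65 and 15.0 without carbon. Neither gene's groups overlapped, and the lowest Avicel value was replicate 1 in both. The rise was 4.02 for gh3-8 (SE 0.72, adjusted p = 0.0139) and 4.14 for gh3-7 (SE 0.44, adjusted p = 0.000903). The call of gh3-8 was lost without Avicel replicate 2 (adjusted p = 0.0579), Avicel replicate 3 (0.0592) or no carbon replicate 1 (0.0608), and over its 20 alternatives the adjusted p ran from 0.000469 to 0.111. With a pseudocount of 0.1 the adjusted p was 0.111 for gh3-8 and 0.0547 for gh3-7.

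NCU09652, NCU01900 and NCU02343 were more abundant and were likewise lowest in replicate 1. NCU01900 had 3574, 12226 and 13407 FPKM on Avicel, against 206, 91.5 and 176 without carbon. NCU02343 had 2018, 13543 and 12376 FPKM on Avicel, against 454, 888 and 1099.9 without carbon. For NCU09652 the Avicel values were 1128, 3835 and 4044 FPKM and those without carbon 338, 229 and 441. In each of these genes Avicel replicate 1 still lay above the highest no carbon library, so the groups did not overlap. The rises were 5.80 for NCU01900 (SE 0.52, adjusted p = 0.000285), 3.19 for NCU02343 (SE 0.68, adjusted p = 0.0303) and 2.997 for NCU09652 (SE 0.47, adjusted p = 0.00641). Leaving out a single library ended the call of NCU02343 in 7 of 9 cases, as did a fit of only the 2 groups (adjusted p = 0.0874). Without 1 library the adjusted p was 0.0986 for Avicel replicate 2, 0.106 for Avicel replicate 3, 0.117, 0.0701 and 0.0688 for no carbon replicates 1, 2 and 3, and 0.0538 and 0.0562 for sucrose replicates 2 and 3.

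NCU07326 and NCU09775 ran the other way among the Avicel replicates. NCU07326 had 24582, 2864 and 3146 FPKM on Avicel, against 54.2, 65.7 and 46.8 without carbon. NCU09775 had 266, 13.5 and 12.7 FPKM on Avicel, against 3.06, 5.05 and 4.46 without carbon. Avicel replicate 1 was by far the highest library of its group in both genes, and the lowest Avicel library was above every library without carbon. NCU07326 rose by 6.76 (SE 0.71, adjusted p = 0.000766), the largest rise of the 7 with all replicates. Without Avicel replicate 1 it rose by 5.74 (adjusted p = 5.72e-06), and NCU01900, at 6.42 (adjusted p = 7.25e-05), had the larger rise. NCU09775, at 2.87 (SE 1.002, adjusted p = 0.159), was not called with all replicates, and without Avicel replicate 1 it was called at a smaller difference of 1.46 (SE 0.25, adjusted p = 0.0149), so that all 7 genes then rose, beside 3.95% of all tested genes.

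**Figure D1:**
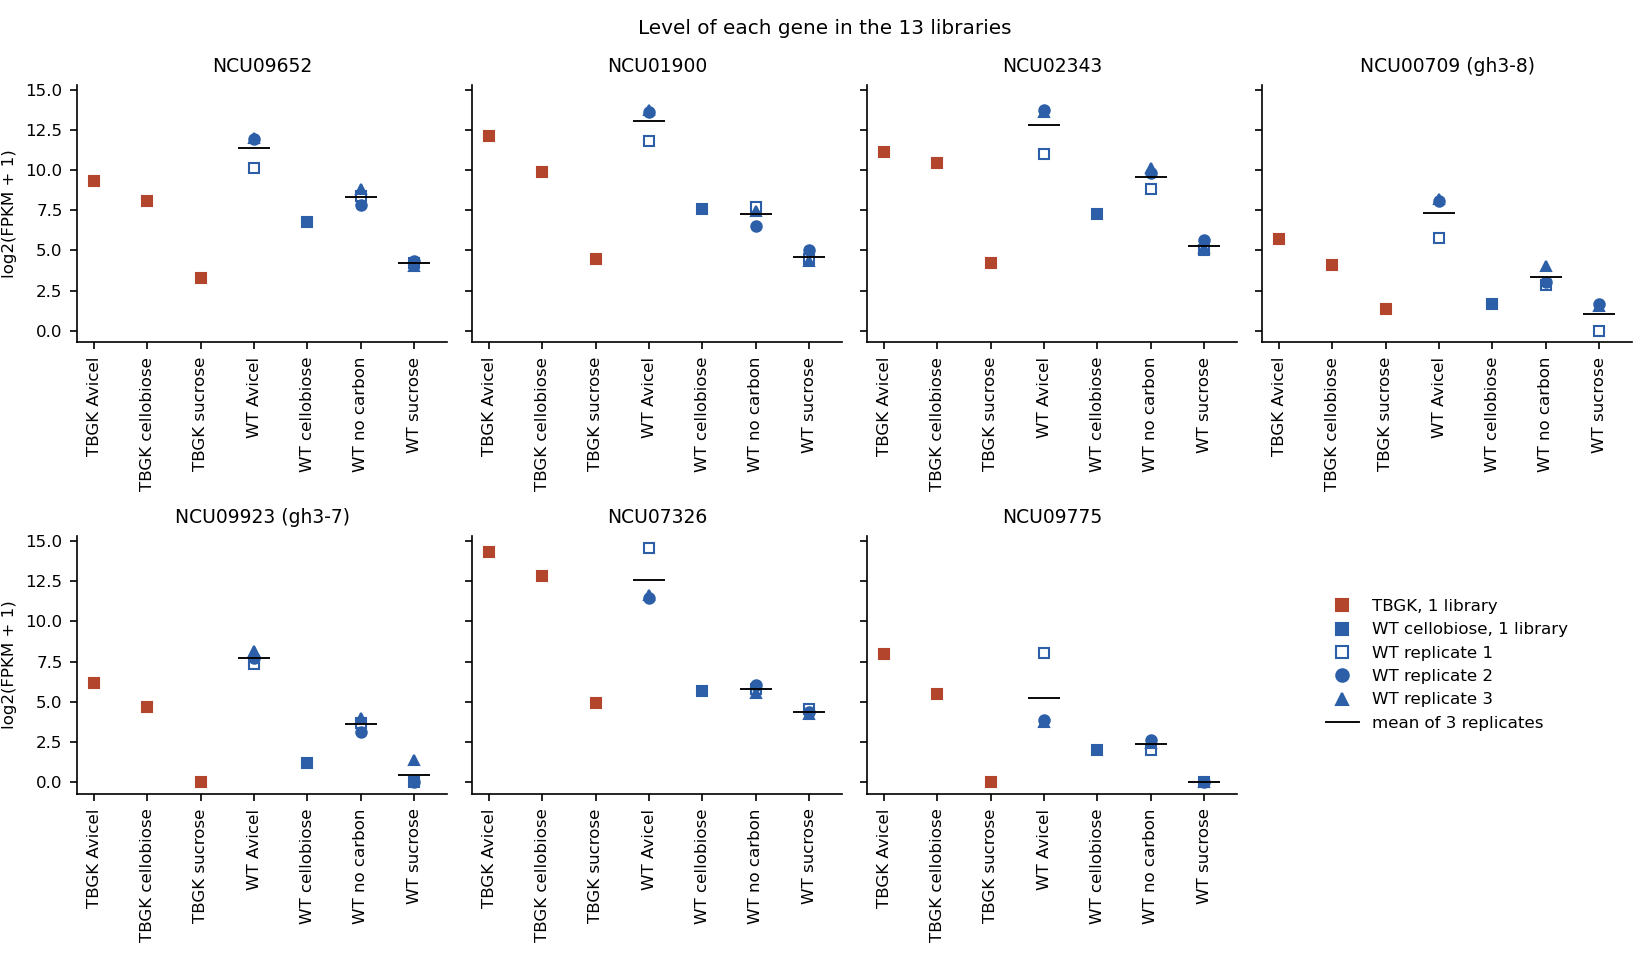
Level of each of the 7 genes, as log2(FPKM + 1), in all 13 libraries. Red squares are the TBGK libraries, filled blue squares the single WT cellobiose library, and open squares, circles and triangles WT replicates 1, 2 and 3, with a bar at the mean of 3. In the upper row and in gh3-7, Avicel replicate 1 is the lowest WT Avicel library. In NCU07326 and NCU09775 it is the highest, close to TBGK on Avicel.

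The split within WT on Avicel was large. Set against the mean FPKM of replicates 2 and 3, replicate 1 had 8.18 times as much NCU07326 and 20.3 times as much NCU09775. In the other 5 genes replicates 2 and 3 were higher than replicate 1, by 1.51 times in gh3-7, 3.49 in NCU09652, 3.59 in NCU01900, 5.25 in gh3-8 and 6.42 in NCU02343. The summed level of the 7 genes was 31784, 32960.1 and 33557 FPKM in replicates 1, 2 and 3. NCU07326 alone made up 77.3% of that sum in replicate 1, but 8.69% in replicate 2 and 9.38% in replicate 3, where NCU01900 and NCU02343 together supplied most of it. By at least 2-fold against both other replicates, 2 of the 7 genes were higher in replicate 1 and 4 were lower, whereas 9.51% of all tested genes were higher and 12.3% lower.

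Replicate 1 also differed from the others in sequencing. In the triplicate files, coverage times effective length came out as a whole number of reads, within 0.02 of a read, for 88.0% to 93.2% of low values when a read was taken as 40 bases in Avicel replicate 1 and sucrose replicate 1, 50 bases in replicates 2 and 3 of Avicel and sucrose, and 51 bases in all 3 libraries without carbon. These read lengths are read from the values and not stated in the labels. On this count NCU07326 had 35813 reads in Avicel replicate 1 and 20057 and 20303 in replicates 2 and 3, and NCU09775 had 400, 104 and 92. Both genes thus had more reads in the shallowest library of the group. Whether read length, depth or the culture itself moved these genes was not tested, and a read length of 51 bases cannot be told apart from the lack of carbon.

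The other genes of the xylan pathway did not all split the same way in Avicel replicate 1. Most pentose catabolism genes were low there. Xylose reductase (xr) had 8540 FPKM in replicate 1 and 36991 and 37166 in replicates 2 and 3, xylulokinase (xyk-1) had 428, 1668 and 1594, and 4 of the 5 genes of this list were at least 2-fold lower in replicate 1 than in both others. Of 5 identifiers listed as esterases, 3 were at least 2-fold higher in replicate 1 and none was lower. The xylanases were divided, with gh11-1 at 9171, 3086 and 3815 FPKM and gh10-2 at 12303, 48359 and 53692. Among the regulators, the transcript of the carbon repressor cre-1 (NCU08807) had 699.5 FPKM in Avicel replicate 1 and 113 and 140 in replicates 2 and 3, while xlr-1 (NCU06971), the xylanase regulator, had 984, 1183 and 1303.

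**Figure D2:**
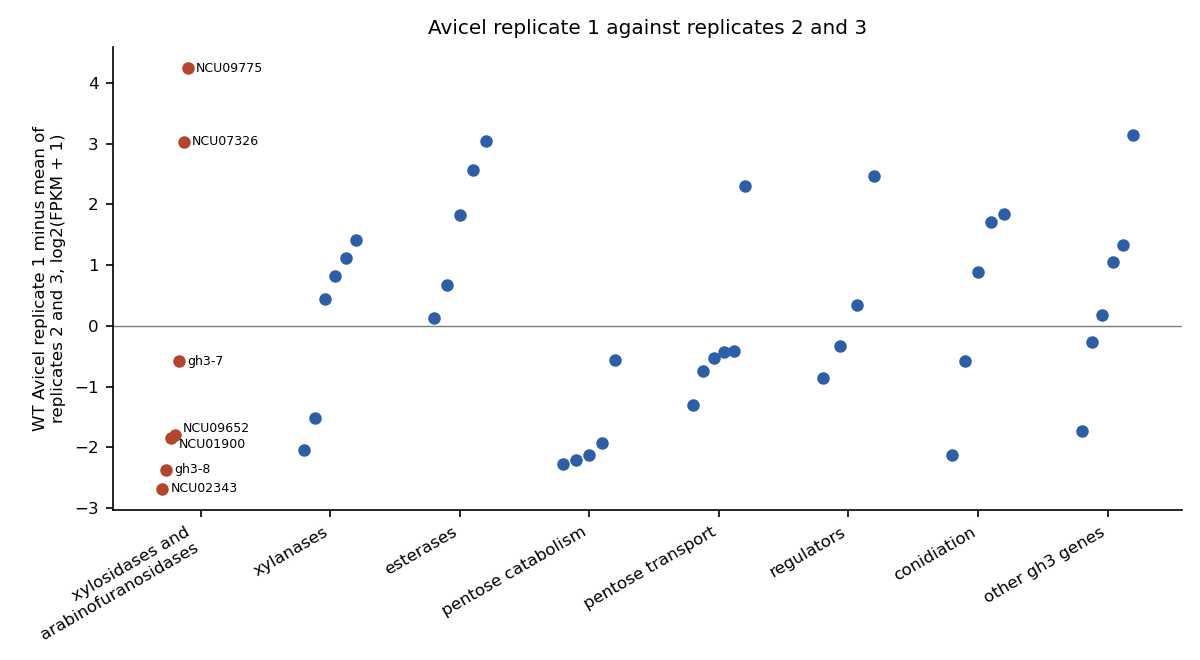
WT Avicel replicate 1 minus the mean of replicates 2 and 3, in log2(FPKM + 1), for each gene (point) of the 7 and of the lists named on the x axis. NCU09775 (4.25) and NCU07326 (3.03) lie at the top, gh3-7 (-0.58) below 0, and NCU09652, NCU01900, gh3-8 and NCU02343 between -1.80 and -2.68.

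In WT on Avicel, set against WT on sucrose, all 7 genes rose, and in each of them every Avicel library was above every sucrose library. Among all tested genes 33.9% rose and 35.6% were separated in this way. The median of the 7 was 7.29, beside 0.26 for all tested genes. NCU02343, the most abundant of the 7 on sucrose, had 32.0, 48.4 and 34.7 FPKM there. NCU07326 had 22.7, 19.7 and 17.6 FPKM on sucrose, NCU01900 had 20.6, 32.0 and 19.3, and NCU09652 had 17.3, 19.3 and 15.2. The GH3 genes were at the limit of detection on sucrose, with 0, 2.18 and 1.89 FPKM of gh3-8 and 0, 0 and 1.62 of gh3-7.

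The rises on Avicel against sucrose were 8.42 for NCU01900 (SE 0.52, adjusted p = 3.14e-06), 8.18 for NCU07326 (SE 0.71, adjusted p = 2.05e-05), 7.49 for NCU02343 (SE 0.68, adjusted p = 2.76e-05), 7.29 for gh3-7 (SE 0.44, adjusted p = 3.03e-06), 7.16 for NCU09652 (SE 0.47, adjusted p = 4.32e-06) and 6.26 for gh3-8 (SE 0.72, adjusted p = 0.000109). NCU09775 was listed at 0 in all 3 sucrose libraries. Against a floor of 3 reads per library, which is 1.88 FPKM in the shallowest, its lowest Avicel library was at least 6.72-fold higher. The fitted 5.23 for this gene (adjusted p = 0.0019) depends on the added 1, as do the fitted values of gh3-7 and gh3-8, which were at 0 in 2 and 1 of the sucrose libraries. With a pseudocount of 0.1 the rise was 9.70 for gh3-7 and 7.70 for gh3-8, and with a pseudocount of 10 it was 4.42 and 3.93. The median of the 7 was 8.24 with a pseudocount of 0.1 and 6.58 with a pseudocount of 10, beside 7.29, which is also the median with NCU09775 at its bound. Floors here cover counting error only. All 7 calls held when any of the 9 libraries was left out, and without Avicel replicate 1 they stood beside 38.7% of all tested genes.

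Within the 40-base libraries, Avicel replicate 1 minus sucrose replicate 1 was 10.02 for NCU07326, 7.37 for NCU01900, 5.95 for NCU09652 and 5.94 for NCU02343. Within the 50-base libraries the same difference of means was 7.26 for NCU07326, 8.95 for NCU01900, 7.77 for NCU09652 and 8.27 for NCU02343. All were positive at both read lengths, and NCU07326 had the largest value of these 4 genes at 40 bases and the smallest at 50 bases. The other 3 genes, gh3-8, gh3-7 and NCU09775, were at 0 in sucrose replicate 1 and so have no such value at 40 bases.

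**Figure D3:**
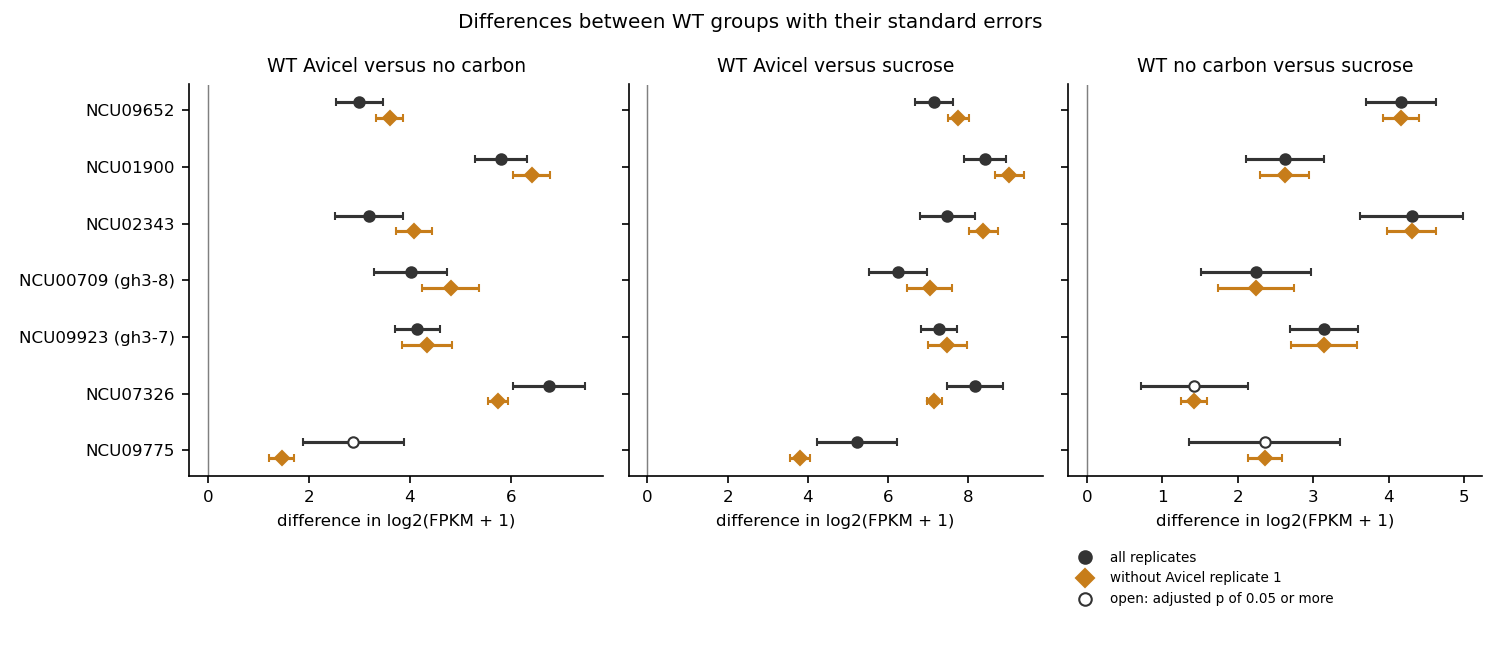
Difference in log2(FPKM + 1) of each gene in the 3 comparisons of WT groups, with bars of 1 SE from limma. Black circles use all replicates and orange diamonds leave out Avicel replicate 1, and an open symbol has an adjusted p of 0.05 or more. With NCU09775 open in both comparisons that involve no carbon and NCU07326 open in no carbon against sucrose, the other points are filled with all replicates. None is open without Avicel replicate 1, and fitted values of NCU09775, gh3-7 and gh3-8 against sucrose depend on the added 1.

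In WT without carbon, set against WT on sucrose, 5 of the 7 genes rose with no carbon source in the medium, and in all 7 every library without carbon lay above every sucrose library. The background was high here, with 40.2% of all tested genes rising and 45.3% separated. The median of the 7 was 2.62, beside 0.39 for all tested genes, and was 4.23 with a pseudocount of 0.1 and 1.12 with a pseudocount of 10. NCU02343 rose by 4.301 (SE 0.68, adjusted p = 0.000602) and NCU09652 by 4.16 (SE 0.47, adjusted p = 8.42e-05), followed by gh3-7 at 3.14, NCU01900 at 2.62 and gh3-8 at 2.24 (adjusted p = 0.000324, 0.00211 and 0.0233). NCU07326, at 1.42 (SE 0.71, adjusted p = 0.108), did not pass, nor did NCU09775, which at its lowest was at least 1.63-fold above the floor on sucrose (adjusted p = 0.0665). Without Avicel replicate 1, which enters only through the shared estimate of spread, both passed and all 7 were called (43.3% of all tested genes), with an adjusted p of 0.00023 for NCU07326 and 5.86e-05 for NCU09775. NCU09775 also passed with a pseudocount of 0.1 (adjusted p = 0.00295) and with limma-voom on recovered reads (0.0443). Both passed in a fit of only the 2 groups (0.000224 for NCU09775 and 0.00193 for NCU07326). Of 20 alternatives, however, NCU09775 was called in 5 and NCU07326 in 3. With a pseudocount of 10 the adjusted p was 0.605 for NCU09775 and 0.188 for NCU07326. With limma-voom it was 0.417 for NCU07326. The call of gh3-8 was lost without no carbon replicate 3 (adjusted p = 0.0840) or sucrose replicate 1 (0.0755), under quantile normalization (0.841), where that of gh3-7 was also lost (0.0658), with a pseudocount of 10 (0.233) and with limma-voom on recovered reads (0.131).

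The order of the 7 levels changed between conditions. Without carbon NCU02343 had the highest FPKM in 3 of 3 libraries and NCU09652 the second highest, with 42.3%, 68.6% and 61.2% of the summed level coming from NCU02343. On sucrose NCU02343 was again highest in 3 of 3 libraries, though its values there overlapped those of NCU01900. On Avicel the highest gene was NCU07326 in replicate 1, NCU02343 in replicate 2 and NCU01900 in replicate 3. The lowest levels belonged to gh3-8, gh3-7 and NCU09775 in all 13 libraries. The summed FPKM of the 7 genes was 1073 to 1797 without carbon and 90.3 to 122 on sucrose. In WT on cellobiose the highest gene was NCU01900 (189 FPKM), followed by NCU02343 (151) and NCU09652 (107), and the sum was 504 FPKM.

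**Figure D4:**
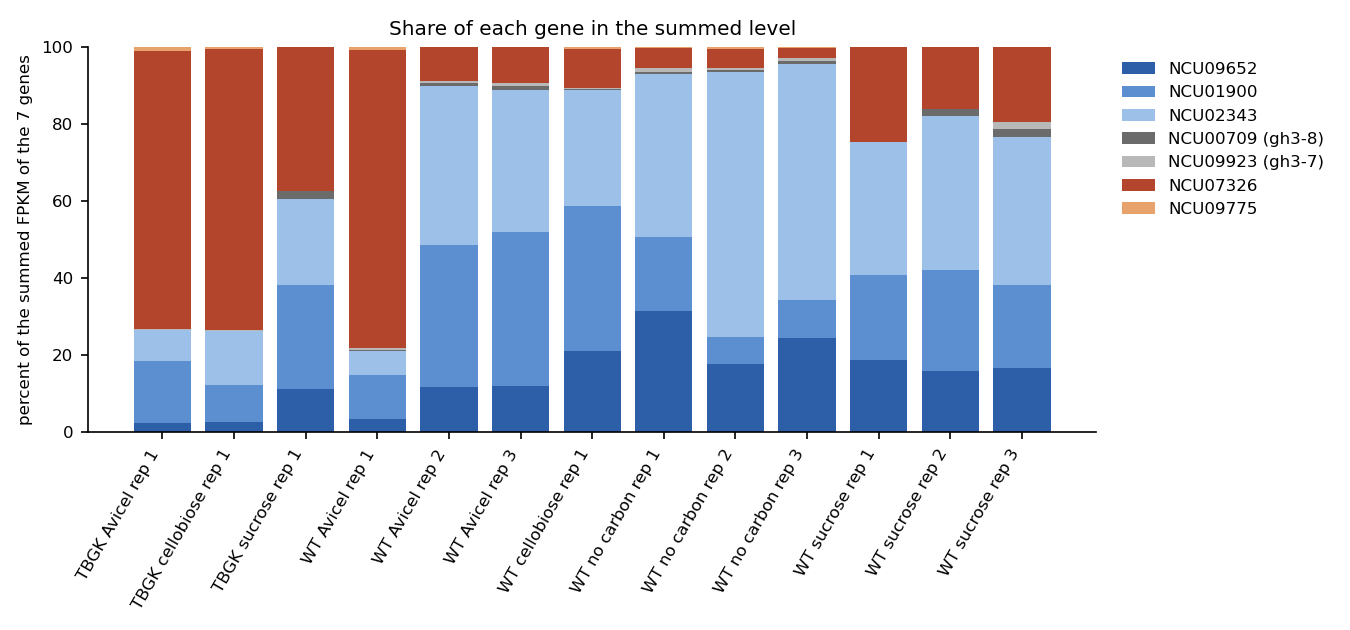
Share of each gene in the summed FPKM of the 7 genes, in percent, for each of the 13 libraries. NCU07326 takes 72.2%, 73.0% and 77.3% in TBGK on Avicel, TBGK on cellobiose and WT Avicel replicate 1, but 8.69% and 9.38% in WT Avicel replicates 2 and 3.

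The TBGK strain addresses which genes reach on cellobiose, when beta-glucosidases that split it are missing, a level like that of WT on cellulose. With 1 library per group there was no replicate check, so values are given as levels. A gene was counted as higher or lower at a difference of at least 2-fold in FPKM + 1. Where a WT group had replicates, they were averaged as log2(FPKM + 1) for these counts. On cellobiose all 7 genes were higher in TBGK than in WT by that measure, as were 21.6% of all tested genes, and the median of the 7 was 3.19, beside 0.0013 for all tested genes. NCU07326 stood out, with 7262 FPKM in TBGK on cellobiose and 50.2 in WT on cellobiose, a ratio of 145. The ratio was 18.8 for gh3-7 (24.4 and 1.30 FPKM), 14.9 for NCU09775 (43.9 and 2.94) and 9.19 for NCU02343 (1391 and 151). It was 7.38 for gh3-8 (15.6 and 2.12), 5.01 for NCU01900 (946 and 189) and 2.51 for NCU09652 (268 and 107). NCU09652, the second most abundant of the 7 in WT without carbon, thus had the smallest ratio between the strains. The ratios of gh3-7, NCU09775 and gh3-8 rest on WT levels of 1.30, 2.94 and 2.12 FPKM, so their place in this order is uncertain. With a pseudocount of 10 their log2 differences were 1.61, 2.06 and 1.08, beside 3.47, 3.51 and 2.42 with 1.

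A limma fit of all 13 libraries takes each single library to vary as the WT triplicates do. In it 2 of the 7 genes passed in TBGK on cellobiose against WT on cellobiose, beside 6.11% of all tested genes. These were NCU07326 (7.15, SE 1.23, adjusted p = 0.00993) and gh3-7 (3.47, SE 0.77, adjusted p = 0.0249). WT Avicel replicate 1 enters this comparison only through the estimate of spread, and without it the SE of NCU07326 was 0.28 (adjusted p = 5.2e-05). In that fit of 12 libraries 5 of the 7 passed, beside 11.1% of all tested genes, and gh3-8 (adjusted p = 0.0897) and NCU09652 (adjusted p = 0.0589) did not. Leaving out the library that deviates most narrows the estimated spread by construction.

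Against sucrose in the same strain, all 7 genes were at least 2-fold higher in TBGK on cellobiose (29.8% of all tested genes) and on Avicel (27.8%). In TBGK on sucrose gh3-7 and NCU09775 were listed at 0, and no fold is given for them. NCU07326 had 20145 FPKM on Avicel, 7262 on cellobiose and 29.0 on sucrose in TBGK. NCU02343 had 2241, 1391 and 17.3 FPKM, NCU01900 had 4492, 946 and 21.0, NCU09652 had 634, 268 and 8.66, and gh3-8 had 50.6, 15.6 and 1.55. For gh3-7 the levels were 69.6 and 24.4 FPKM in TBGK on Avicel and cellobiose, and for NCU09775 they were 255 and 43.9. Every gene was higher on Avicel than on cellobiose, from 1.61 times in NCU02343 to 5.82 times in NCU09775. In the fit over 13 libraries 6 genes passed for cellobiose against sucrose in TBGK (all but gh3-8; 15.9% of all tested genes) and all 7 for Avicel against sucrose (12.7%), and without WT Avicel replicate 1 all 7 passed in both (21.9% and 18.2%).

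In WT, where beta-glucosidases are intact, the levels on cellobiose lay between those on sucrose and those on Avicel for 5 genes, and those of gh3-7 and gh3-8 lay inside their ranges on sucrose. Against WT on sucrose, 5 of the 7 genes were at least 2-fold higher on cellobiose, as were 21.2% of all tested genes, and those not past 2-fold were gh3-8 (2.12 FPKM on cellobiose) and gh3-7 (1.30). In the fit over 13 libraries 2 passed, NCU01900 (2.96, SE 0.73, adjusted p = 0.0434) and NCU09652 (2.57, SE 0.66, adjusted p = 0.0490), beside 6.19% of all tested genes, and without Avicel replicate 1 there were 5, beside 11%. Against WT without carbon, 4 genes were at least 2-fold lower on cellobiose (26% of all tested genes) and none higher. Of these gh3-7 passed in the fit (1.30 FPKM on cellobiose, against 7.65 to 15.0 without carbon; -2.41, SE 0.63, adjusted p = 0.0259), beside 14.8% of all tested genes, and without WT Avicel replicate 1 NCU02343 and NCU09652 passed too (22.5%). The levels of NCU07326 (50.2 FPKM on cellobiose) and NCU09775 (2.94) lay inside or just below the range of the libraries without carbon.

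How TBGK on cellobiose stood against WT on Avicel turned on the WT replicate used. Against the mean log2(FPKM + 1) of the 3 WT Avicel libraries, 5 of the 7 genes were at least 2-fold lower in TBGK on cellobiose. Among all tested genes 10.2% were, and the differences of the 5 ran from -2.32 (NCU02343) to -3.27 (NCU09652 and gh3-8). For NCU07326 and NCU09775 the difference was 0.26 each, and both TBGK values lay inside the wide range of WT on Avicel. The sign of these 2 differences depends on the kind of mean. Against mean FPKM both genes were lower in TBGK on cellobiose, with 7262 against 10197 for NCU07326 and 43.9 against 97.4 for NCU09775, the latter past 2-fold. Against Avicel replicate 1 alone both were lower, at -1.76 for NCU07326 and -2.57 for NCU09775, and 6 of the 7 genes were at least 2-fold lower, all but NCU02343 (-0.54). In the fit over 13 libraries NCU09652 (adjusted p = 0.0468) and gh3-7 (0.0469) passed as lower, beside 1.71% of all tested genes. Without Avicel replicate 1 all 7 passed, 5 as lower (11.6% of all tested genes) and NCU07326 (1.27) and NCU09775 (1.67) as higher (6.8%).

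TBGK on Avicel, set against WT on Avicel, gave opposite signs for some genes depending on which WT replicates it was set against. Against the mean log2(FPKM + 1) of the 3 replicates, NCU07326 and NCU09775 were at least 2-fold higher in TBGK (14.6% of all tested genes). By the same measure 4 genes were at least 2-fold lower (10.4%). These counts depend on the kind of mean. Set against mean FPKM, NCU07326 fell just short of 2-fold (20145 in TBGK, 10197 in WT). NCU01900 was then past 2-fold lower (4492 in TBGK, 9736 in WT). Against Avicel replicate 1 alone, TBGK had 0.82 times its level of NCU07326, 0.96 times that of NCU09775 and of gh3-8, 1.11 times that of NCU02343, 1.26 times that of NCU01900, 0.56 times that of NCU09652 and 0.43 times that of gh3-7, and gh3-7 was the only gene past 2-fold. Against the mean FPKM of replicates 2 and 3, TBGK had 6.70 times the level of NCU07326 and 19.5 times that of NCU09775. It had 0.16 to 0.35 times that of the other 5. Leaving replicate 1 out of a fit therefore changes the difference as well as the spread. None of the 7 passed in the fit over 13 libraries (0.468% of all tested genes passed as higher and 0.217% as lower), and 2 of them, NCU09652 and gh3-7, had an unadjusted p under 0.05. Without replicate 1, NCU07326 (adjusted p = 0.00329) and NCU09775 (0.00221) passed as higher, beside 9.28%, and NCU02343 (0.0159) and NCU09652 (0.00761) as lower, beside 13%.

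TBGK on sucrose, set against WT on sucrose, differed by at least 2-fold in NCU02343 alone, with 17.3 FPKM in TBGK and 32.0, 48.4 and 34.7 in WT (-1.08), where 2.56% of all tested genes were lower. None of the 7 passed in the limma fit over 13 libraries, where 0.194% of all tested genes did as lower, and none had an unadjusted p under 0.05. NCU09775 was listed at 0 in all 4 sucrose libraries.

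**Figure D5:**
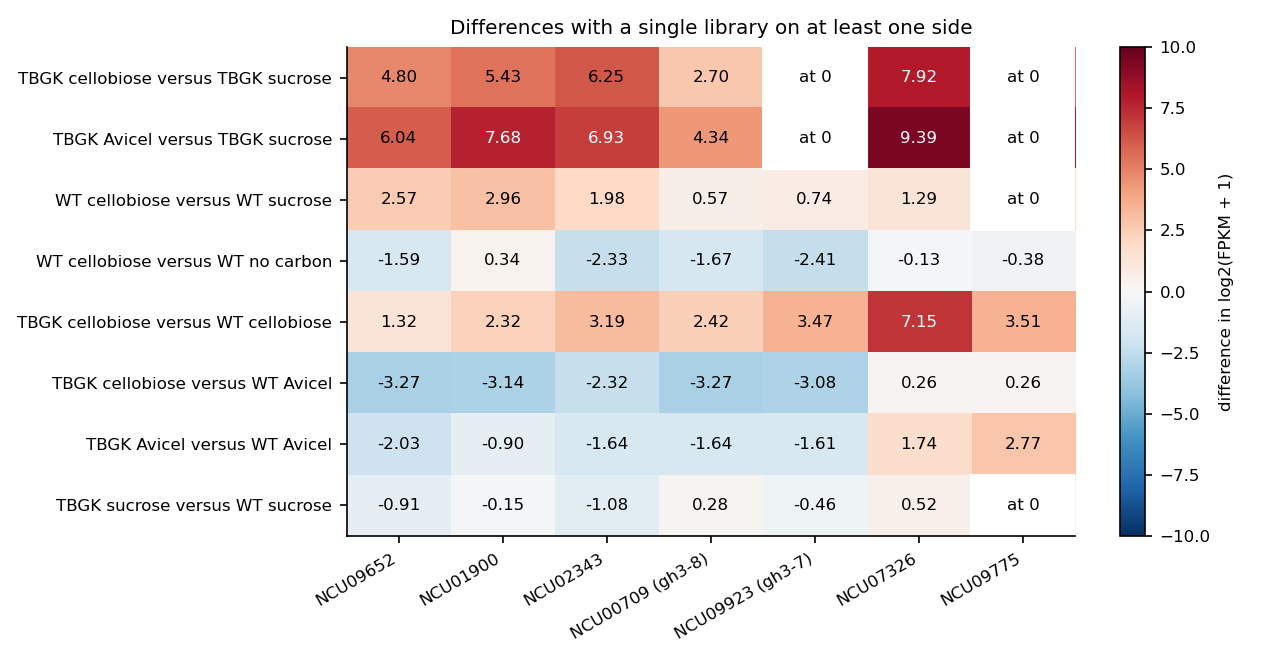
Difference in log2(FPKM + 1) of each gene (columns) in the 8 comparisons with a single library on at least 1 side (rows), with red for higher and blue for lower in the first-named group. Cells marked at 0 had a second group listed at 0 and carry no difference. NCU07326 is the darkest of the TBGK cellobiose against WT cellobiose row (7.15), and the row for TBGK Avicel against WT Avicel holds both signs.

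The difference between the strains in the response to cellobiose was tested as an interaction in the same fits. Fits without Avicel replicate 1 were added after its values were seen. Leaving it out narrows the spread by construction and, where WT on Avicel enters, also moves the difference. TBGK on Avicel had 0.82 times the level of that library in NCU07326 and 0.96 times in NCU09775. Passes in fits without it are therefore a description of the other libraries. For cellobiose against Avicel, the TBGK value exceeded that of WT by 5.08 in gh3-7 (SE 0.9995, adjusted p = 0.0211), the single gene of the 7 that passed, beside 5.38% of all tested genes. Its levels were 24.4 FPKM on cellobiose and 69.6 on Avicel in TBGK, and 1.30 on cellobiose and 163, 214 and 280.3 on Avicel in WT. With so low a WT cellobiose level, the size of the difference depends on the added 1. That call was lost without Avicel replicate 2 (adjusted p = 0.0514) and was at 0.0125 without Avicel replicate 1. In the fit without Avicel replicate 1, 6 of the 7 passed (12.7% of all tested genes), with NCU02343 at 5.72 and NCU07326 at 4.404, and NCU09775 (-0.68, adjusted p = 0.376) did not. For cellobiose against sucrose none of the 7 passed in the limma fit over 13 libraries (1.42% of all tested genes did), where 3 had an unadjusted p under 0.05 and NCU07326 was at 6.63 (adjusted p = 0.0780). Without Avicel replicate 1, NCU07326 (adjusted p = 0.000341), NCU02343 (0.0201) and NCU09775 (0.00996) passed, beside 3.65%. For Avicel against sucrose no gene of the 7 had an adjusted or unadjusted p under 0.05 in the limma fit over 13 libraries, and without Avicel replicate 1 NCU07326 (2.23, adjusted p = 0.0240) and NCU09775 (4.19, adjusted p = 0.0125) passed, beside 2.39%.

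Among the other genes of the pathway, most xylanases and all listed esterases rose on Avicel. The lists were drawn up with earlier results of these data known, so their counts are a description. Against no carbon, 5 of 6 xylanase genes rose, from gh10-3 (4.54) to gh10-1 (11.41), and gh10-4 (-0.70, adjusted p = 0.466) did not pass. The median of the xylanases was 7.41, and 3.9% of all tested genes rose in this comparison. All 5 listed esterases rose, from 4.16 to 10.02. Of 5 pentose catabolism genes 3 rose, xr by 7.96 (SE 0.51, adjusted p = 4.15e-05), NCU00891 by 4.33 and xyk-1 by 2.61, whereas NCU00643 (-0.01) and NCU09041 (-0.53) did not pass. Of 6 genes listed for pentose transport 1 rose, NCU06138 by 4.96 (adjusted p = 0.0175), with a list median of 0.09 and NCU01132 lowest at -0.53. Of the 4 regulators clr-2 (6.80), clr-1 (2.03) and xlr-1 (1.78) rose and cre-1 (0.06) did not pass. The products of clr-1 and clr-2 activate cellulase genes and that of xlr-1 activates xylanase genes. The gene table names neither the esterases nor the transporters, so these 2 roles are those of the lists as drawn up. None of the 5 conidiation markers was called by limma, 3 had an unadjusted p under 0.05, and their median was -1.94.

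Other gh3 genes did not all respond to Avicel. Of the 6 other genes whose symbol begins with gh3, which include the deleted gh3-3 and gh3-4, 2 rose on Avicel against no carbon, gh3-6 by 6.999 and gh3-3 by 4.33, and gh3-1 (-0.29) was lowest. Against sucrose, 5 of 6 xylanases, 5 of 5 esterases, 5 of 5 pentose catabolism genes, 6 of 6 transporters, 3 of 4 regulators, 5 of 6 other gh3 genes and 5 of 5 conidiation markers rose on Avicel. Without carbon, against sucrose, the counts were 4 of 6 xylanases, 4 of 5 esterases, 3 of 5 pentose catabolism genes, 6 of 6 transporters, 3 of 4 regulators, 4 of 6 other gh3 genes and 5 of 5 conidiation markers. In TBGK on cellobiose, against WT on cellobiose, 6 of 6 xylanases and 5 of 5 esterases were at least 2-fold higher, with medians of 7.03 and 9.09, and 2 of 5 pentose catabolism genes were, with a median of 0.82. By the same rules 33.9% of all tested genes rose on Avicel and 40.2% without carbon, both against sucrose. In TBGK on cellobiose 21.6% were at least 2-fold higher than in WT on cellobiose.

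By position in the deposited files, the 7 genes lie on 4 contigs and none is a neighbour of another. The genes are NCU09652 (supercont10.4, 73571 to 75325), NCU07326 (supercont10.4, 4359553 to 4360740), NCU09923 (supercont10.4, 5279590 to 5281914), NCU01900 (supercont10.1, 2095258 to 2096348), NCU00709 (supercont10.1, 7477814 to 7480507), NCU09775 (supercont10.2, 4269308 to 4270336) and NCU02343 (supercont10.7, 1407856 to 1410270). Their genome build is not given in the sources used here. Of the 14 genes directly before and after them none overlaps a member as annotated, and the closest lies 116 bases away. That closest neighbour, NCU00710 beside gh3-8, had 524, 1283 and 1498 FPKM on Avicel, against 10.7, 11.1 and 11.1 without carbon (6.39, adjusted p = 3.09e-05). It shared with gh3-8 the low value in Avicel replicate 1. NCU09924, 747 bases from gh3-7, also rose (2.93, adjusted p = 0.0178), as did NCU02344 beside NCU02343 and NCU09774 beside NCU09775. In all, 4 of the 13 neighbours that passed the filter rose on Avicel against no carbon, beside 3.9% of all tested genes. In Avicel replicate 1 neighbours did not all follow their member. NCU09774 had 37.8, 5.31 and 6.63 FPKM in Avicel replicates 1, 2 and 3, high in replicate 1 like NCU09775. NCU09776, on the other side of NCU09775, had 279, 634 and 668. NCU02344 had 684, 156 and 186 FPKM, opposite to NCU02343.

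The genes that ran opposite ways in Avicel replicate 1 were also compared over all 13 libraries, of which that library is one. Pearson correlations of log2(FPKM + 1) were 0.93 to 0.99 among gh3-7, gh3-8, NCU09652, NCU01900 and NCU02343, and 0.94 between NCU07326 and NCU09775. Across these 2 sets, which were chosen after the values of that library were seen, they were 0.70 to 0.89, the highest being that of NCU01900 with NCU07326. In the 12 libraries without Avicel replicate 1 they were 0.93 to 0.99 within the set of 5, 0.93 for the pair and again 0.70 to 0.89 across. These values describe libraries that share strains, carbon sources and, for 9 of them, a deposit, and carry no test. Among all tested genes the 3 most like NCU07326 were NCU08624 (0.994), NCU09664 (0.991), which is on the esterase list, and the endoglucanase gene gh7-1 (NCU05057, 0.989). Those most like NCU01900 were NCU09705 (0.986), gh2-1 (NCU00890, 0.985) and clr-1 (0.976). NCU09652 and NCU02343 were each among the 3 most like the other (0.985). For gh3-8 the closest gene was NCU00292 (0.987), for gh3-7 NCU06373 (0.981), for NCU02343 NCU03995 (0.99003) and for NCU09775 NCU10865 (0.971).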

How the data were processed

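RNA-seq of 13 libraries was used as deposited. The deposited values are FPKM per transcript, and for the 9 triplicate libraries also coverage and effective length per the file headers. TopHat and Cufflinks 0.9.3 are named in the submitters' processing notes, whose annotation and genome build are not given in the sources used here. FPKM was summed per gene (9907 transcripts, 9733 genes). Of these, 9010 identifiers were found in the RefSeq gene table of assembly NC12 and 1093 had a symbol there.

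Genes with at least 1 FPKM in at least 3 of the 9 triplicate libraries were kept (8759). log2(FPKM + 1) was compared between WT groups with limma 3.58.1 (moderated, with a trend in the spread; R 4.3.3), fitted to the 9 triplicate libraries together, with Benjamini-Hochberg adjustment over all kept genes and a threshold of 0.05. The added 1 understates changes of genes with low values. Single libraries were compared by level at 2-fold, and in a limma fit over all 13 libraries as an alternative. For the 2-fold counts, replicates of a group were averaged on the log2(FPKM + 1) scale. The fit of the 9 triplicate libraries was checked on simulated data, for Avicel against no carbon alone and with noise drawn independently for each gene. Fits that include single libraries, and the interactions, were not checked in this way. Tables and figures used matplotlib 3.10.9, numpy 2.4.6 and pandas 2.3.3 under Python 3.11.15.

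Coverage times effective length was divided by the read length, from 30 bases upward, that made most low values (under 3000 aligned bases) whole within 0.02, which recovered reads for 88.0% to 93.2% of them. limma-voom on these reads was an alternative added after seeing the data, as were the fits without WT Avicel replicate 1 among the 13 libraries. Depth differed 11.96-fold among the triplicate libraries. FPKM were taken as comparable between libraries, as deposited.

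All 7 genes are named, with the list genes by count and by the largest and smallest difference of WT on Avicel against no carbon, the 3 genes most alike by Pearson correlation over 13 libraries, and the annotated neighbours. List genes given for Avicel replicate 1, and list genes beyond the largest and smallest difference, were chosen after their values were seen. The 7 genes and the lists were chosen with earlier results of these data known. The other alternatives were pseudocounts of 0.1 and 10, no filter, the highest transcript per gene, median-of-ratios scaling, quantile normalization, fits of only the 2 groups compared, a replicate block, and leaving out each replicate. Replicate numbers were taken to pair libraries where every same-numbered pair correlated above 0.1 in its deviations from the group means. This held for Avicel with sucrose (0.179, 0.117 and 0.176 for replicates 1, 2 and 3), where both libraries of number 1 are also the shallow 40-base ones and sucrose replicate 2 correlated more with Avicel replicate 3 (0.155), and not for Avicel with no carbon (-0.197, -0.308 and 0.453) or no carbon with sucrose (-0.116, -0.094 and -0.02). The labels call the triplicates biological but do not say how cultures were shared, so p-values measure the spread between these libraries.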

Additional observations from a re-analysis of the deposited data

Results flagged for a closer look

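The response of gh3-7 (NCU09923) to cellobiose against Avicel differed between the strains in a test of that difference. It was 5.08 higher in TBGK than in WT on the log2(FPKM + 1) scale (SE 0.9995, limma over 13 libraries, adjusted p = 0.0211). The TBGK and WT cellobiose levels, 24.4 and 1.30 FPKM, came from 1 library each and so did the TBGK Avicel level of 69.6 FPKM, while WT on Avicel had 163, 214 and 280.3 FPKM. When each triplicate library was left out in turn the adjusted p ran from 0.0125 to 0.0514, and it passed the threshold in every case except that without Avicel replicate 2. WT on Avicel came from the earlier deposit, so deposit and strain cannot be told apart in this difference. It also depends on the added 1, because the WT cellobiose level was only 1.30 FPKM. For gh3-7, TBGK minus WT on cellobiose was 3.47, but 4.13 with a pseudocount of 0.1 and 1.61 with 10. The interaction was not fitted at those pseudocounts. In the fit over 13 libraries NCU07326 had a larger interaction value, 5.41, with a larger SE.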

How the results depend on the processing

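Counts below are of the 7 genes. With each triplicate library left out in turn, the count called was 4 to 7 for WT Avicel against no carbon, 7 to 7 for Avicel against sucrose and 4 to 7 for no carbon against sucrose. The count past 2-fold was 5 to 6 for WT cellobiose against WT sucrose, 4 to 4 for WT cellobiose against no carbon, 5 to 7 for TBGK cellobiose and 6 to 7 for TBGK Avicel against WT Avicel, and 0 to 1 for TBGK sucrose against WT sucrose. Under quantile normalization 3 genes were called in no carbon against sucrose in place of 5; there 51.5% of all called genes were higher, beside 62.5% without it, and in Avicel against sucrose 48.4%, beside 58.0%. The median difference of all genes was then 0.06 and 0.01, beside 0.39 and 0.26. A pseudocount of 10 left 2 genes past 2-fold in WT cellobiose against no carbon and 0 in TBGK sucrose against WT sucrose, where a pseudocount of 0.1 gave 3. In the fit over 13 libraries the count was 2 for WT cellobiose against sucrose, 1 for WT cellobiose against no carbon, 2 for TBGK cellobiose against WT cellobiose, 2 for TBGK cellobiose against WT Avicel, and 0 for both TBGK Avicel and TBGK sucrose against WT. Against WT Avicel replicate 1 alone, 1 gene was past 2-fold in TBGK on Avicel. The differences of NCU07326 (-0.29), NCU01900 (0.33), NCU02343 (0.15) and NCU09775 (-0.058) changed sign there. With a pseudocount of 0.1 gh3-8 (adjusted p = 0.111) and gh3-7 (0.0547) lost their calls in Avicel against no carbon. The cause of these changes was not tested. The filter, the transcript choice, the median-of-ratios scaling and limma-voom on recovered reads left the counts of 6, 7 and 5 called genes as they were, although with limma-voom NCU09775 (adjusted p = 0.0443) took the place of gh3-8 (0.131) in no carbon against sucrose. Over all genes limma-voom called 426 genes higher and 172 lower in Avicel against no carbon.

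With the replicate block the counts of called genes were 6, 7 and 5, as without it, while calls over all genes were 374, 4934 and 5529 with the block and 493, 5110 and 5633 without. The numbers met the criterion for pairing in Avicel against sucrose alone. There a block in a fit of only the 2 groups, added after seeing the data, called 7 of 7 genes and 4561 over all genes, and the block changed no call of the 7 genes in that comparison.

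Low levels limit gh3-8, gh3-7 and NCU09775, which had 0 to 23 reads in each sucrose library. NCU09775 rested on 25, 111 and 102 reads without carbon and 400, 104 and 92 on Avicel. Effective length varied up to 1.20 times between libraries for a gene.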
